A study of Mus musculus with 12 samples.

Results

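The stomach and the brain of mock mice were compared on 6 single-color arrays, 3 for each organ, out of the 12 arrays of the series. The mice were male FVB mice, 6 to 8 weeks old, heterozygous for a PPRE transgene, in which 5 repeats of the peroxisome proliferator response element and the tk promoter drive luciferase. All 6 arrays carried this transgene and none came from a wild-type mouse. Mock mice received saline subcutaneously and organs were taken on day 3. The other 6 arrays, from the same organs of mice given 0.2 g/kg chitosan, were used as separate samples of each organ and to test whether the organ difference differed between treatments. The 3 arrays of a group came from 3 independent mice, but no source used here says whether brain and stomach were taken from the same mice. Among the 29922 probes of the array, 21020 name a gene, and these stand for 16675 symbols.

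The mouse stomach has a forestomach lined by a keratinizing squamous epithelium and a glandular part with mucous, parietal, chief and endocrine cells, both wrapped in smooth muscle. Surface and neck mucous cells secrete mucus and trefoil factors, parietal cells secrete acid and, in the mouse, chief cells secrete pepsinogen and intrinsic factor. The brain holds neurons, which signal through synaptic vesicles, oligodendrocytes, which make myelin, and astrocytes, which take up transmitters and ions. Whole organs were used, so that fewer cells of a type and less RNA per cell cannot be told apart.

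The arrays of 1 organ resembled each other more than those of the other. Pearson correlations of log2 intensities over all probes were 0.899 to 0.934 among brain arrays, 0.871 to 0.939 among stomach arrays and 0.575 to 0.674 between organs. The values had a floor, with a lowest intensity of 34.4 to 34.6 on each mock array, and 9.62% to 10.6% of probes lay above 2 times the lowest. A probe under this level on all 3 arrays of an organ is called near the floor. Its fold is then a lower bound, computed against the higher of 2 times the lowest intensity and the value of the probe on each array, since the files hold no detection flags. Where only some arrays of an organ were under it, the fold is that of the measured means, and the text says how many were above. The mean intensity was 70.0 to 70.1 on every mock array, so that the organs are compared on a common scale and each difference is relative to the other probes. The mock stomach array of replicate 2 stood apart on bright probes. Among 2142 probes above 2 times the lowest on all 3 stomach arrays, it lay at least 2-fold above the mean of the other arrays at 160 probes and at least 2-fold below at 73, whereas no other mock array did so at more than 28 probes in 1 direction. Its part in the results was not tested beyond leaving it out.

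limma called 1060 probes higher in stomach (3.54% of all) and 848 higher in brain (2.83%) at an adjusted p of 0.05, and 5236 probes had an unadjusted p under 0.05. Single arrays moved these counts, to 682 for stomach without mock brain replicate 1, and to 539 and 549 for brain without mock stomach replicates 1 and 3. A marker probe was defined as a called probe with at least a 2-fold difference and no overlap between the 3 arrays of each organ. There were 499 stomach marker probes (1.67%), naming 419 genes, and 515 brain marker probes (1.72%), naming 427 genes. The stomach markers reached larger differences. At 16-fold there were 51 stomach and 22 brain marker probes, and at 64-fold 9 and 1. On the brain arrays 354 of the 499 stomach marker probes were near the floor, and on the stomach arrays 287 of the 515 brain marker probes were. A shared probe was defined as one above 2 times the lowest on all 6 arrays whose 95% confidence interval of the log2 difference lay within -1 and 1. There were 491 (1.64%), naming 422 genes. Without mock stomach replicate 2 there were 544 stomach markers, 524 brain markers and 528 shared probes. Of the 1189 probes above 2 times the lowest on all 6 arrays, 76 were called higher in stomach, 150 were called higher in brain, and 473 were neither called nor shared.

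**Figure D1:**
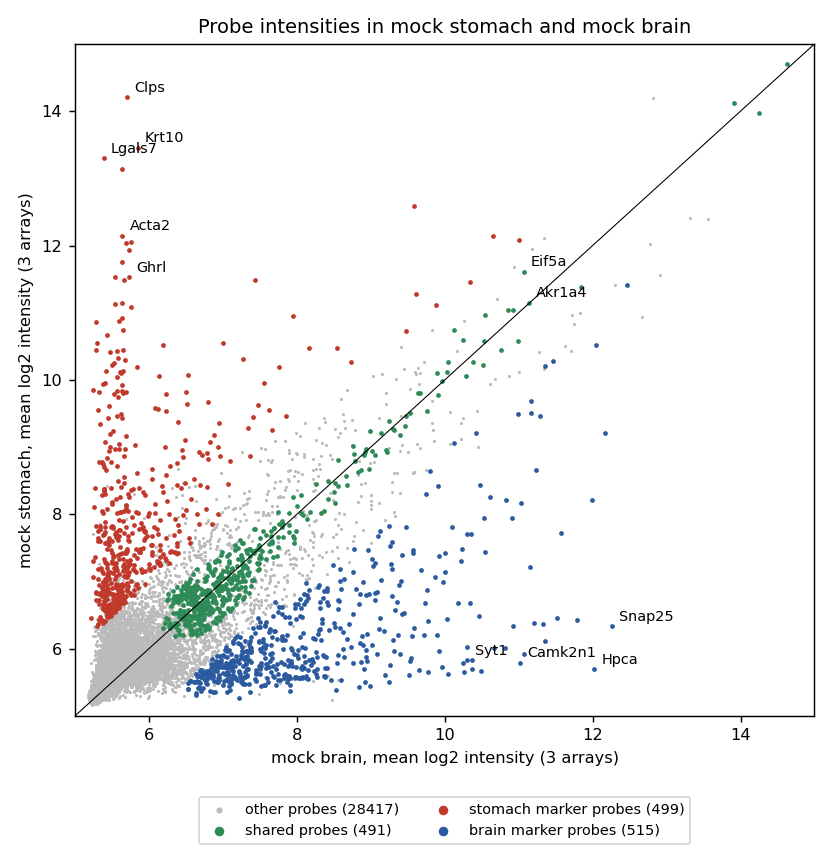
Mean log2 intensity of each probe in mock brain (x axis) and mock stomach (y axis), 3 arrays each, with the line of equal values. The 499 stomach marker probes lie above the line up to Clps, with 354 near the floor on all 3 brain arrays. The 515 brain marker probes lie under the line out to Snap25 and Hpca, with 287 near the floor on all 3 stomach arrays. The 491 shared probes follow the line.

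**Figure D2:**
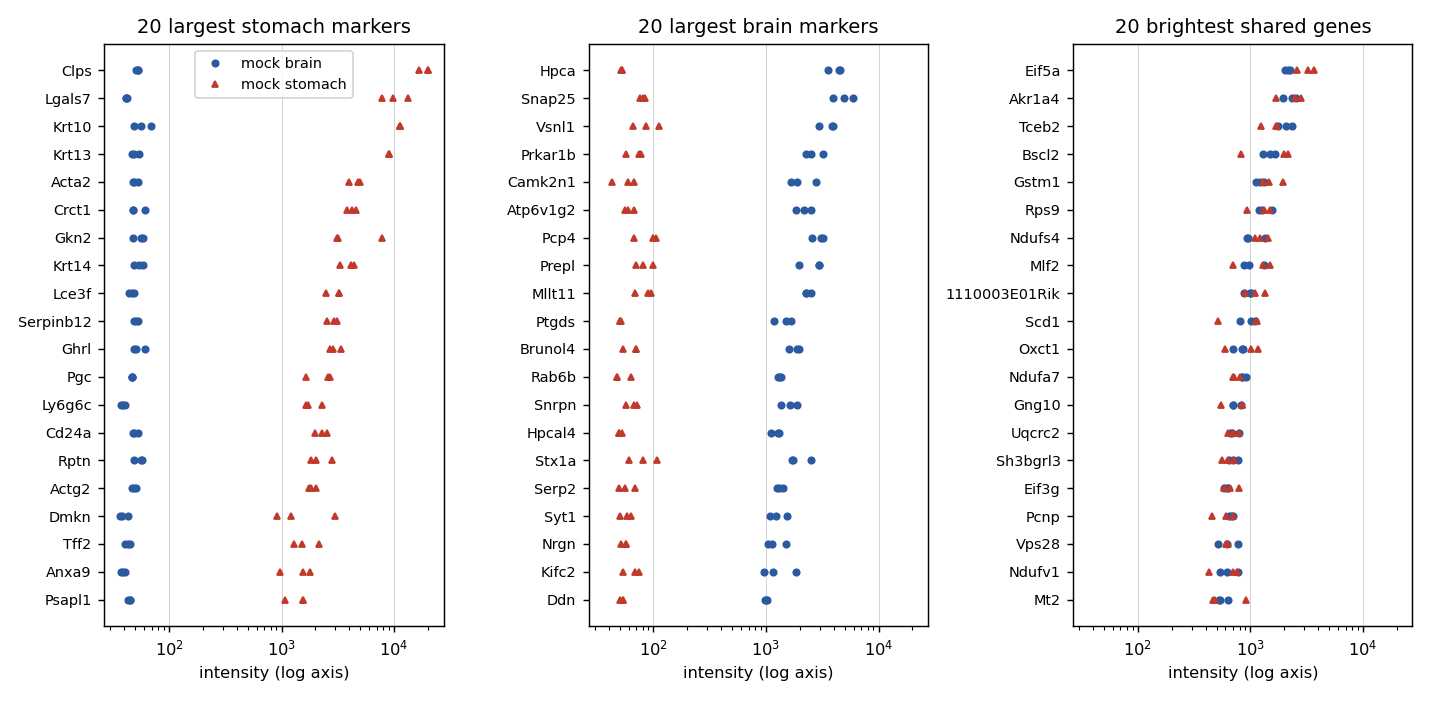
Intensity on each array (log axis) of the 20 largest stomach markers, the 20 largest brain markers and the 20 brightest shared genes, with circles for mock brain and triangles for mock stomach. The organs are separated at every marker, as the marker rule requires, with brain values of the stomach markers up to 69.6 for Krt10. They overlap in the shared genes apart from Eif5a, Tceb2 and Ndufa7.

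The promoters of the 3 classes differed in base composition. Sequences from RefSeq (GRCm38.p6), 250 bases before to 50 after a start, were found for 318 of the 419 stomach marker genes, 331 brain marker genes and 361 shared genes. TATAAA, searched on the strand of the gene between 40 and 15 bases before the start, was in 31 of 388 stomach marker promoters (7.99%), in 3 of 511 brain marker promoters (0.59%) and in 2 of 479 shared promoters (0.42%), beside 2.2% of the 16667 promoters of all genes of the array. An observed over expected CpG ratio of at least 0.6 was found in 39.7% of stomach marker, 59.5% of brain marker and 78.3% of shared promoters, beside 53.9% for all genes of the array. Genes with several starts count once for each start, and a match is a description of the letters only. In the squamous epithelium list 8 of 25 promoters held TATAAA and 2 reached the CpG ratio, whereas in the list of cytosolic ribosomal proteins 0 of 24 and 23 did. The CArG box, the site of serum response factor, which drives many smooth muscle genes, was in 5 of 28 promoters of the smooth muscle list (17.86%), beside 1.44% for all genes of the array. These were promoters of Actc1, Cnn2, Ldb3 and Myl9, of which only Cnn2 and Myl9 were stomach markers. The box was in 11 of 388 stomach marker promoters (2.84%), 4 of 511 brain marker promoters (0.78%) and 8 of 479 shared promoters (1.67%). The box searched is the strict form, which reads the same way on both strands.

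**Figure D3:**
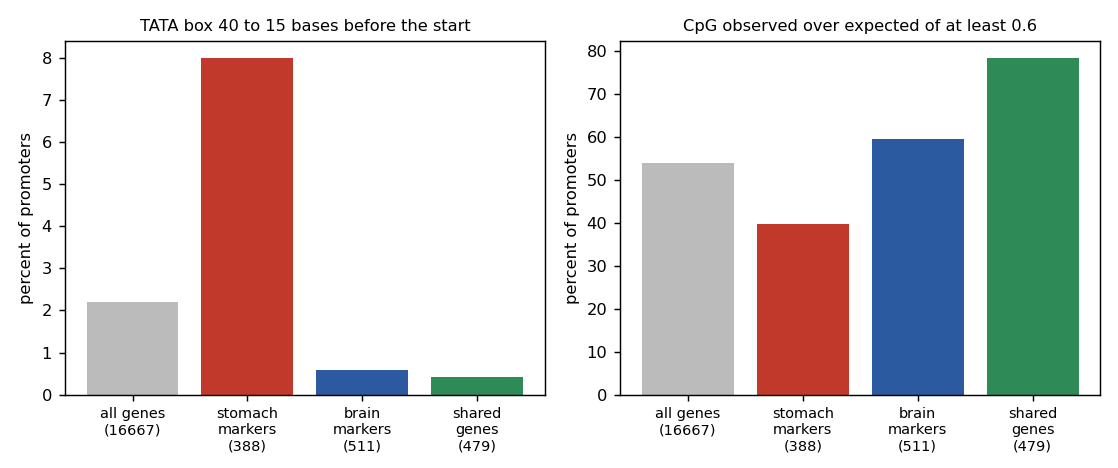
Percent of promoters with TATAAA 40 to 15 bases before the start (left) and with an observed over expected CpG ratio of at least 0.6 (right), for all genes of the array, stomach markers, brain markers and shared genes, with the number of promoters in brackets. The stomach markers have the highest TATAAA share, 7.99%, and the shared genes the highest CpG share, 78.3%.

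Windows from 100 bases before to 50 after the start are shown for 3 stomach markers with TATAAA and for Cnn2 with its CArG box, with these letters in capitals. Krt10 (keratin 10) lies at chr11:99389315-99389464, minus strand, Gkn2 (gastrokine 2) at chr6:87373265-87373414, plus strand, Pgc (pepsinogen C) at chr17:47726742-47726891, plus strand and Cnn2 (calponin 2) at chr10:79988500-79988649, plus strand.
Krt10: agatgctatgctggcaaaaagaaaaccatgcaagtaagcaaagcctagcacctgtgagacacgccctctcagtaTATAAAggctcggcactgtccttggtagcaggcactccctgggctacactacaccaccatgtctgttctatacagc
Gkn2: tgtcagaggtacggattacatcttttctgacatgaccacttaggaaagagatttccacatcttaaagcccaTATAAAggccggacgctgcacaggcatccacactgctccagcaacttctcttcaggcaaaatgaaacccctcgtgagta
Pgc: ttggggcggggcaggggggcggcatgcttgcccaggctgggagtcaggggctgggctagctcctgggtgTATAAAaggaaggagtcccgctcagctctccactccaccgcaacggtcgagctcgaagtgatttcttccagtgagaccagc
Cnn2: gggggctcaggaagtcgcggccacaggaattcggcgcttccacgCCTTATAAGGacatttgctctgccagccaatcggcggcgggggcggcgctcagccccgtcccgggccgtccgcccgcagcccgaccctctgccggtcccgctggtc
For comparison, the same windows of 2 brain markers and a shared gene are shown with each CG in capitals. Nrgn (neurogranin) lies at chr9:37552696-37552845, minus strand, Rab6b at chr9:103111974-103112123, plus strand and the ribosomal protein gene Rps9 at chr7:3703941-3704090, plus strand.
Nrgn: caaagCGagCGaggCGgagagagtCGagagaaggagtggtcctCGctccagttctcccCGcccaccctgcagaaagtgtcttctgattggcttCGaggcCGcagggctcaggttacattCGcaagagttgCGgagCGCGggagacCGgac
Rab6b: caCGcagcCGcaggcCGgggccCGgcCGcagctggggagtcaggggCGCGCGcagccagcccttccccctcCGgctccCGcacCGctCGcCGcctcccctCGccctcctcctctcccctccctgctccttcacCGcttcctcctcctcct
Rps9: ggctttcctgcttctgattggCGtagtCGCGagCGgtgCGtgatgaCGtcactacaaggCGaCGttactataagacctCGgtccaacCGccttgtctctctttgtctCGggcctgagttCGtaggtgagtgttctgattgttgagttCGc
The windows of Nrgn, Rab6b and Rps9 hold 13, 15 and 13 CG pairs, whereas those of Krt10, Gkn2 and Pgc hold 2, 4 and 7. Cnn2 departs from the latter, with 18.

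Genes were then grouped by cell type and pathway, each gene by its brightest probe. Over all 16675 genes, 838 (5.03%) were called higher in stomach and 680 (4.08%) higher in brain, with a median log2 difference of -0.02. These shares are the background for the list counts that follow. The lists were written with earlier results of these data known and differ in length. The counts therefore describe the lists and are no independent test of a cell type.

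Among the written lists, that of the squamous epithelium of the forestomach held the most genes called higher in stomach. Of 38 listed genes on the array, 27 were higher in stomach and 0 in brain, with a median log2 difference of 1.69 (29 and 1.72 without mock stomach replicate 2). The summed intensity of the list was 1950 to 2009 on the brain arrays and 40675 to 47353 on the stomach arrays. Krt10, a keratin of maturing squamous cells, gave 56.2, 48.8 and 69.6 in brain and 11242 on each stomach array, a 195-fold difference of the mean log2 values (adjusted p 3.01e-05), with 1 brain array above 2 times the lowest intensity. Krt13, a keratin of internal squamous epithelia, gave 46.4, 48.8 and 53.5 against 8985 on each stomach array (at least 130-fold). Equal values occur at many probes of these arrays, and they are not taken here as an absence of error. Krt14, a keratin of the basal layer, gave 48.6, 58.2 and 53.5 against 3297, 4102 and 4360 (at least 56.4-fold, adjusted p 0.000184). Its partner Krt5 was much dimmer on this array, with 50.1, 53.2 and 50.6 against 133, 135 and 138 (at least 1.96-fold, adjusted p 0.000418).

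Lgals7, a galectin of stratified epithelia, was the second largest difference of all, with 42.0, 41.8 and 41.8 in brain and 7834, 13240 and 9824 in stomach (at least 146-fold, adjusted p 6.52e-05). The cornified envelope genes followed. Lor, which encodes loricrin, gave 46.4, 50.4 and 53.5 against 713, 1199 and 841 (at least 13.0-fold, adjusted p 0.000294). Sprr3, a small proline-rich envelope protein, gave 48.6, 46.0 and 47.8 against 941, 2004 and 1377 (at least 19.9-fold, adjusted p 0.000295). Crct1, Lce3f, Rptn and Dmkn, further genes of the cornifying layer, were among the 20 largest stomach markers at lower bounds of 21.6- to 60.8-fold. The organs did not overlap at any of these genes, which the marker rule itself requires. Dsp, which encodes the desmosomal protein desmoplakin, was at 70.3, 88.9 and 61.8 in brain and 1935, 781 and 2113 in stomach (adjusted p 0.00114), with 2 brain arrays above 2 times the lowest intensity, and was lowest on the stomach array that stood apart. Gjb6, a connexin also listed for astrocytes, was not called (128, 104 and 160 against 95.8, 288 and 110, adjusted p 0.859), and the organs overlapped. Ivl, Trp63, Dsg3, Dsc3 and Krt16 were near the floor in both organs.

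Several of these genes lie side by side in the genome. In RefSeq gene order, restricted to genes of the array, 62 of 418 placed stomach marker genes (14.8%) had another stomach marker as a neighbor, beside 36 of 425 brain marker genes (8.5%) and 29 of 419 shared genes (6.9%). Runs of at least 3 stomach markers included Lce1c, Lce1d and Lce1e, and Lce3b, Lce3f, Crct1 and Lce1m on chromosome 3, where late cornified envelope genes are clustered, and Sbsn, Dmkn and Krtdap on chromosome 7. Neighboring family members have similar sequences, and whether their probes tell them apart is not known here. A brain run of 4 genes was Kctd13, Asphd1, Sez6l2 and Cdipt on chromosome 7.

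Smooth muscle genes formed the second of these listed groups. Of 28 listed genes, 16 were higher in stomach and 1 in brain, with a median of 0.99. Acta2, the smooth muscle alpha actin, gave 47.4, 53.2 and 48.9 in brain and 4953, 3951 and 4755 in stomach (at least 65.7-fold, adjusted p 0.000174). Actg2, the enteric gamma actin, gave 48.6, 50.4 and 46.6 against 1835, 2037 and 1755 (at least 27.1-fold, adjusted p 0.000227). Myh11, the smooth muscle myosin heavy chain, gave 74.2, 82.5 and 57.2 against 1404, 684 and 1272 (15.2-fold, adjusted p 0.000848, with 2 brain arrays above 2 times the lowest). In all 3 genes every stomach array lay above every brain array, which the marker rule itself requires. Des (desmin) was at least 7.10-fold higher in stomach, and Cnn2, whose promoter is shown above, gave 45.2, 40.6 and 45.0 against 108, 202 and 117 (at least 1.98-fold). Csrp1, a LIM protein, was bright in both organs, with 1188, 1569.9 and 1167 against 3178, 1950.3 and 3558 (2.16-fold, adjusted p 0.0354). Tagln, a common marker of smooth muscle, was dim, with 46.4, 47.8 and 48.9 against 64.2, 104 and 52.3, and was not called (adjusted p 0.254). The exception in direction was Pdlim7, a LIM protein, at 149, 162 and 122 in brain and 75.8, 66.5 and 72.2 in stomach (adjusted p 0.0119, with 2 stomach arrays above 2 times the lowest). Connective tissue genes were also higher in stomach, with 10 of 28 called, 0 higher in brain and a median of 0.49, or 12 called and 0.31 without mock stomach replicate 2. Vim (vimentin) gave 102, 108 and 106 against 357, 623 and 472 (4.49-fold, adjusted p 0.00484). The matrix genes Dcn (decorin) and Col3a1 (a collagen chain) were at least 6.04- and 4.69-fold higher in stomach.

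The glandular stomach was represented by fewer called genes. Of 19 mucous cell genes, 7 were higher in stomach (median 0.46), of 17 parietal cell genes 5 were (median 0.15), of 10 chief cell genes 3 were (median 0.02), and of 12 endocrine genes 1 was (median -0.04). Only 8, 10, 3 and 2 of these genes lay above 2 times the lowest intensity on all 3 arrays of an organ. The medians include the others, so that a median near 0 does not show that these cell types hardly differ. In the simple epithelium list 8 of 20 genes were higher in stomach and 0 in brain (median 0.29), or 9 and 0.24 without mock stomach replicate 2. None of the mucous, chief or endocrine genes was called higher in brain by limma, with 0, 2 and 2 at an unadjusted p under 0.05. Without mock stomach replicate 2, 9 mucous, 6 parietal, 3 chief and 1 endocrine genes were higher in stomach, and the medians of the mucous and parietal lists were 0.23 and 0.05. Gkn2, a secreted protein of surface mucous cells, gave 56.2, 58.2 and 47.8 against 3105, 7834 and 3178 (at least 61.7-fold, adjusted p 0.000227). Tff2, the trefoil factor of mucous neck cells, gave 43.2, 45.0 and 40.8 against 1299.6, 2151 and 1522 (at least 23.5-fold). Psca, a surface antigen of mucous cells, gave 48.6, 53.2 and 48.9 against 748, 4360.1 and 826 (at least 20.2-fold, adjusted p 0.00447). The mock stomach array of replicate 2 was the brightest in all 3 genes. It also carried Gkn1, with 45.2, 42.9 and 41.8 in brain and 128, 1903 and 163 in stomach, which was not called (adjusted p 0.140). The summed mucous list ranged from 6751 to 17856 over the stomach arrays and from 859.6 to 923 over the brain arrays. Muc5ac and Muc6, which encode the gastric mucins, were near the floor in both organs.

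Pgc, the precursor of a gastric protease, gave 46.4, 46.6 and 46.6 in brain and 2586, 1644 and 2669 in stomach (at least 32.6-fold, adjusted p 0.000227). Gif, the gastric intrinsic factor, was at least 16.2-fold higher in stomach, as was Chia, an acidic chitinase. Lipf and Pga5, which encode a gastric lipase and a further pepsinogen, were near the floor. Atp4b and Atp4a, the subunits of the proton pump of parietal cells, gave 44.2, 47.8 and 46.6 against 708, 1019 and 959, and 42.0, 40.6 and 44.0 against 466, 695 and 488 (at least 12.8- and 7.84-fold). Ghrl, which encodes the hormone ghrelin, gave 60.8, 50.4 and 48.9 against 2864, 2669 and 3376 (at least 42.8-fold, adjusted p 0.000227). Sst, the somatostatin gene, is expressed by gastric endocrine cells and by neurons, and gave 346, 279 and 539 in brain against 138, 268 and 166 in stomach (adjusted p 0.236). Gast and Chga were near the floor. Among parietal genes, Ckmt1, a mitochondrial creatine kinase, was shared by both organs (402, 455 and 516 against 347, 385 and 462), and Cckbr, the gastrin receptor, was higher in brain (92.3, 88.9 and 96.2 against 41.5, 42.7 and 42.0, at least 1.34-fold).

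The largest difference of all was Clps, which encodes colipase, a cofactor of pancreatic lipase. It gave 52.4, 53.2 and 50.6 in brain and 16672, 20076 and 20076 in stomach, a log2 difference of 8.50 ± 0.19 (SE, 3 arrays each), or at least 273-fold (adjusted p 7.66e-06). Of 20 listed genes of the exocrine pancreas on the array, 2 were called, Clps and Pla2g1b, a secreted phospholipase (43.2, 39.5 and 40.8 against 294, 763 and 372, at least 6.33-fold). The defining pancreatic enzymes Pnlip, Cel, Cpa1, Ctrb1, Prss2 and Ela1 were near the floor in both organs, and the median of the list was 0.03. The list summed to 905 to 956 in brain and 17800 to 21708 in stomach, nearly all of it Clps. A comparable single call was Tnnt3, a troponin of fast skeletal muscle (41.0, 42.9 and 41.8 against 296, 359 and 348, at least 4.83-fold), while Ckm, Acta1, Myh4 and 9 further skeletal muscle genes were near the floor.

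**Figure D4:**
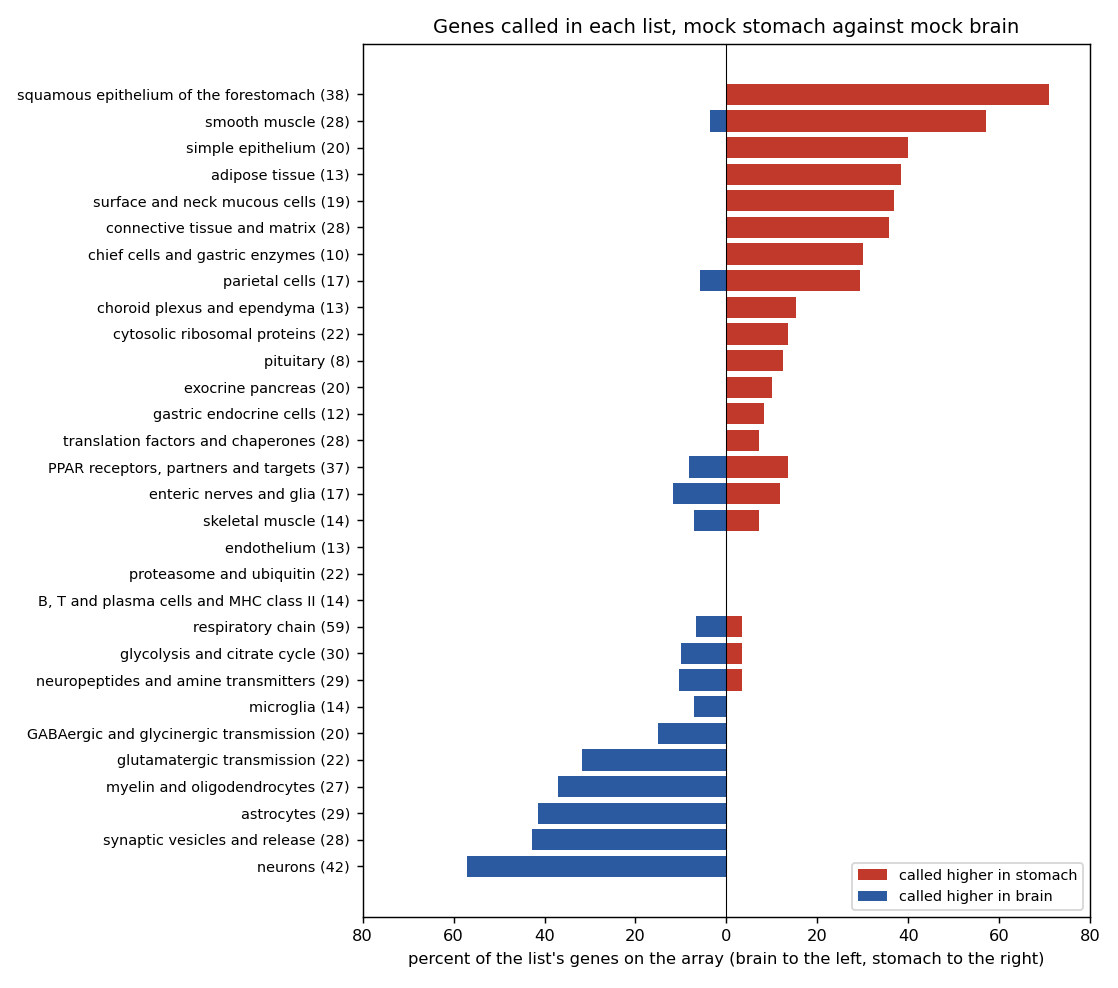
Percent of the genes of each list that were called higher in stomach (bars to the right) or in brain (bars to the left), with the number of genes on the array in brackets, for lists of at least 5 genes. Squamous epithelium and smooth muscle lead on the stomach side and neurons and synaptic genes on the brain side, whereas the endothelial, proteasome and immune lists have no call.

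Among the written lists, neuronal genes led the brain markers. Of 42 listed genes, 24 were higher in brain and 0 in stomach, with a median log2 difference of -1.24, and the list summed to 22236 to 27664 in brain and 2530 to 3071 in stomach. Hpca, the calcium sensor hippocalcin, was the largest brain marker, with 3558, 4451 and 4542 in brain and 52.2, 51.1 and 52.3 in stomach (at least 60.4-fold, adjusted p 0.000181). Snap25, a SNARE protein of synaptic release, gave 3951, 4953 and 5976 against 75.8, 81.2 and 84.6 (60.8-fold, adjusted p 0.000184). Vsnl1, a calcium sensor related to hippocalcin, gave 2933, 3951 and 3842 against 86.5, 65.8 and 113 (41.1-fold, adjusted p 0.000227, with 2 stomach arrays above 2 times the lowest). Syt1, the calcium sensor of vesicle fusion, gave 1092, 1522 and 1220.2 against 57.7, 50.6 and 62.9 (at least 18.4-fold). Nrgn, a postsynaptic calmodulin-binding protein, gave 1042, 1499.5 and 1134 against 56.5, 51.1 and 57.5 (at least 17.6-fold). Ppp3ca, a catalytic subunit of calcineurin, was bright in brain and measurable in stomach, with 3376, 4233 and 4755 against 285, 272 and 338 (13.7-fold). No stomach value of these genes reached a brain value, which the marker rule itself requires. Several common neuronal markers, Gap43, Nefl, Nefm and Ina, were near the floor in both organs.

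The synaptic vesicle list had 12 of 28 genes higher in brain and 0 in stomach (median -0.37). Stx1a, the presynaptic SNARE syntaxin, gave 1706, 2487 and 1728 against 81.5, 60.4 and 106 (24.1-fold, adjusted p 0.000328, with 2 stomach arrays above 2 times the lowest). Atp6v1g2, the neuronal G subunit of the vacuolar proton pump, gave 1851, 2186 and 2487 against 67.2, 55.3 and 59.1 (at least 31.4-fold). Of 22 genes of glutamatergic transmission, 7 were higher in brain (median -0.28), among them Dlg4, a postsynaptic scaffold (251, 259 and 268 against 50.6, 47.9 and 81.5, 4.45-fold with 1 stomach array above 2 times the lowest), and Gria1, an AMPA receptor subunit (at least 3.21-fold). Of 20 genes of inhibitory transmission, 3 were (median -0.12), namely Pvalb, a calcium buffer of fast-spiking interneurons (966, 1117 and 843 against 67.2, 52.8 and 68.4, at least 14.1-fold), Npy, the neuropeptide Y gene (7.57-fold), and Abat, the GABA transaminase (at least 3.42-fold). Gad1 and Gad2, which make GABA, were near the floor. Of 29 peptide and amine genes, 3 were higher in brain, Scg5, Pcsk2 and Cpe, which serve peptide processing, and 1 in stomach, Gal.

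Glial genes were also among the brain markers. Of 27 myelin and oligodendrocyte genes, 10 were higher in brain and 0 in stomach (median -0.53). Plekhb1, a membrane-associated adaptor, gave 1817, 2586 and 2532 against 175, 104 and 184 (15.3-fold, adjusted p 0.00049), and Olig1, the transcription factor of the lineage, gave 641, 731 and 843 against 48.2, 47.3 and 50.6 (at least 10.7-fold, adjusted p 0.000227). Mbp, the myelin basic protein gene, was dimmer, with 195, 106 and 135 against 48.2, 48.9 and 49.3 (at least 2.05-fold, adjusted p 0.00514). Of 29 astrocyte genes, 12 were higher in brain and 0 in stomach (median -0.999). Glul, the glutamine synthetase gene, gave 1106, 1054 and 1706 against 184, 264 and 186 (6.05-fold, adjusted p 0.00284), and Ndrg2 gave 1161, 997 and 1522 against 196, 184 and 159 (6.74-fold, adjusted p 0.00146). Cst3, which encodes the protease inhibitor cystatin C, was the brightest gene of the list in both organs (5174, 7834 and 11242 against 2151, 4542 and 2864) and was not called (adjusted p 0.0641). Gfap, Slc1a2 and Aqp4 were near the floor in both organs. Microglia were represented by 1 of 14 genes, Csf1r (98.1, 111 and 118 against 69.7, 63.3 and 70.6, adjusted p 0.0231, with 2 stomach arrays above 2 times the lowest), and by 0 without mock stomach replicate 2.

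Lists of other tissues and cell types that the samples could hold were counted as well. Of the choroid plexus list, Ttr, its defining gene, was near the floor in both organs, and the 2 genes called of 13, Kcne2 and Clic6, were higher in stomach, where parietal cells express them (at least 3.43-fold for Kcne2). Of 8 pituitary genes 1 was called, Prl, at 48.6, 58.2 and 50.6 in brain and 81.5, 99.2 and 75.3 in stomach, and Gh, Tshb and Pomc were near the floor. No endothelial (of 13), immune (of 14) or blood (of 2) gene was called by limma, with 3, 2 and 0 at an unadjusted p under 0.05. Without mock stomach replicate 2, 1 immune gene was called. Only 2 endothelial, 0 immune and 0 blood genes lay above 2 times the lowest intensity on all 3 arrays of an organ. These lists could therefore hardly show a difference, and the lack of calls does not show that the organs are alike. Adipose tissue had 5 of 13 genes higher in stomach, with Adipoq (adiponectin) at 50.1, 48.8 and 50.6 against 98.6, 80.2 and 106 (at least 1.36-fold), and Fabp4, Lep and Plin were near the floor.

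The genes shared by both organs were led by Eif5a, a translation factor, with 2037, 2264 and 2151 in brain and 3239, 2586 and 3647 in stomach. Its log2 difference was 0.54 (95% confidence interval 0.24 to 0.84, adjusted p 0.0531), and the organs did not overlap, so that it was shared by the width of the interval alone. Akr1a4, an aldehyde reductase, gave 1935, 2557 and 2329 against 2815, 1676 and 2487, a log2 difference of 0.01 (interval -0.46 to 0.48). Rps9, whose promoter is shown above, gave 1263, 1188 and 1569.9 against 936, 1499.5 and 1325, a log2 difference of -0.11 (-0.64 to 0.41). Respiratory chain genes made up 4 of the 20 brightest shared genes, Ndufs4, Ndufa7, Uqcrc2 and Ndufv1. Uqcrc2, a core protein of complex III, gave 659, 792 and 689 against 791, 636 and 702, a log2 difference of -0.01 (-0.56 to 0.54). Mt2 (metallothionein) and Scd1 (stearoyl-CoA desaturase) were also among the 20. The intervals of the 20 genes lay between -0.96 and 0.89.

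By the brightest probe of each gene, 414 of all 16675 genes (2.48%) were shared. Only a measured gene can be shared, and 2480 genes were measured. Of 59 respiratory chain genes, 33 were measured, 9 were shared, 4 were higher in brain and 2 in stomach, and the median was 0.06. The calls in this and the following lists are few. Their shares are read against the 4.08% and 5.03% of all genes, and 598 and 560 of 2480 measured genes. The 4 were Cox8a, Cox6a1 and Cox6b1, subunits of cytochrome oxidase, and Atp5c1, of the ATP synthase. Cox6b1 gave 1977, 2389.9 and 1802 against 777, 547 and 888 (2.82-fold, adjusted p 0.00722), and Cox8a gave 4360.1, 6398 and 6398 against 2933, 2113 and 3297 (2.06-fold, adjusted p 0.0209). Of 30 genes of glycolysis and the citrate cycle, 3 were higher in brain, Eno2, Got1 and Idh3a, and 1 in stomach. Eno2, the neuronal enolase, gave 508, 491 and 891 against 40.5, 53.2 and 43.0 (at least 8.79-fold). Of 22 ribosomal protein genes 2 were shared and 3 were higher in stomach, and of 28 translation factors and chaperones 5 were shared and 2 were higher in stomach. Of 22 proteasome and ubiquitin genes 2 were shared and 0 called by limma, with 1 at an unadjusted p under 0.05. Without mock stomach replicate 2, 5 ribosomal, 4 translation and 4 respiratory chain genes were higher in stomach. In the ribosomal list the stomach array of replicate 2 again stood apart, with Rpl41 at 233, 1299.6 and 358 in stomach and 305, 156 and 429 in brain, and the list summed to 4367 to 9892 over the stomach arrays and 4001 to 4851 over the brain arrays.

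Since the mice carried a PPAR reporter, PPAR receptors, partners and targets were counted. PPARs are nuclear receptors that bind such elements with RXR and drive lipid metabolism. Of 37 genes, 5 were higher in stomach, 3 in brain and 3 shared, and the median was 0.04. Ppara, Ppard and Pparg were near the floor in both organs, and Rxrb was shared (149, 192 and 147 against 149, 133 and 137). Fabp5, a fatty acid binding protein of epithelia, gave 60.8, 122 and 57.2 against 1019, 794 and 862 (11.8-fold, adjusted p 0.00125, with 1 brain array above 2 times the lowest), and Apoa1, an apolipoprotein, was at least 7.25-fold higher in stomach. Cpt1c, the neuronal carnitine palmitoyltransferase, gave 287, 412 and 261 against 90.0, 56.2 and 93.0 (4.04-fold, adjusted p 0.00728, with 2 stomach arrays above 2 times the lowest).

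Related genes of 1 family could differ in class, but no such pair held a marker of each organ. Of the 35 pairs of related genes written down, 6 had both genes above 2 times the lowest intensity. Scd1 was shared (805, 1088 and 1016 in brain against 1153, 515 and 1121 in stomach), whereas Scd2, a related desaturase, was a brain marker (1577, 1851 and 2445 against 246, 200 and 303, 7.82-fold, adjusted p 0.000899). Atp6v1g1, the G subunit found in most cells, was shared (77.8, 88.9 and 74.9 against 95.8, 118 and 106), beside the brain marker Atp6v1g2. Sfn, the epithelial 14-3-3 protein, was a stomach marker (81.3, 113 and 86.2 against 1445, 799.8 and 1070.2, 11.6-fold, adjusted p 0.000889), and Ywhah, a 14-3-3 protein of the brain, was called higher in brain (81.3, 101 and 84.6 against 50.6, 49.8 and 49.3, at least 1.29-fold). In a pair of calcium-dependent membrane binding proteins from different families, Anxa2 was a stomach marker (47.4, 41.8 and 72.4 against 181, 637 and 271, adjusted p 0.0164, with 1 brain array above 2 times the lowest) and Syt1 a brain marker. S100b was a brain marker (245, 200.2 and 188 against 53.7, 52.8 and 49.3), while S100a6 was not called (184, 47.8 and 57.2 against 201, 744 and 249). Atp1b1 and Atp1b2, sodium pump subunits, were both higher in brain. These are comparisons of each probe between organs, not of levels between genes.

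Genes with more than 1 probe were compared across their probes. A probe was measured if it lay above 2 times the lowest intensity on all mock arrays of at least 1 organ. Of 61 marker genes with at least 2 measured probes, 59 had all of them on 1 side, and 34 had at least 2 marker probes. The other genes were 2300005B03Rik, with 1 marker probe for each organ, and Anp32a, with a brain marker probe (343, 309.9 and 363 against 105.5, 119.9 and 133) and a probe that was not called (60.8, 66.5 and 57.2 against 79.1, 69.2 and 79.1, adjusted p 0.188). Camk2b, with both probes on the brain side, had a brain marker probe (169, 178 and 218 against 40.5, 51.8 and 41.0) and a shared probe (144, 137 and 122 against 102, 82.2 and 106). These genes were chosen after their values were seen. The marker genes were themselves picked on the same mock arrays, and the share over all genes with several measured probes was not counted. The agreement between probes is therefore a description and cannot serve as an independent check of the calls.

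The chitosan arrays, which the mock comparison did not use, gave a second measurement of the organ difference in other mice. There limma called 281 probes higher in stomach (0.939%) and 431 higher in brain (1.44%). Of the 499 stomach markers, 478 had the same sign on the chitosan arrays, 401 had no overlap, 352 differed at least 2-fold and 211 were called. Of the 515 brain markers, 504 had the same sign, 430 had no overlap, 399 differed at least 2-fold and 260 were called. None was called the other way. The same sign was found at 53.8% of all probes and at 74.6% of the probes above 2 times the lowest on all 6 mock arrays. Shares without overlap or at 2-fold over all probes were not counted on the chitosan arrays. On the mock arrays 7527 of the 29922 probes had no overlap, in either direction. The median log2 difference of the markers was 1.70 and 1.51 for stomach on the mock and chitosan arrays, and -1.70 and -1.55 for brain. Of the 491 shared probes, 461 were within 2-fold on the chitosan arrays and 5 were called. The called probes included Mlf2 and Tceb2, from the 20 brightest shared genes, at -2.46 and -1.30 (limma, adjusted p 0.0441 and 0.0351). Rps9, Ndufs4 and Pcnp lay beyond 2-fold without a call, at 1.15, -1.01 and -1.09, and the others of the 20 were within 2-fold. The count of markers called again, 471 in all, fell to 0 without chitosan stomach replicate 2, to 86 without chitosan brain replicate 1, to 192 without chitosan stomach replicate 1 and to 219 without chitosan brain replicate 2, so that it depended on single arrays. The organ difference itself differed between mock and chitosan arrays at 75 probes (0.251%, interaction over all 12 arrays). Of these 33 were markers, beside 1.67% and 1.72% of all probes that were stomach and brain markers. Markers were chosen on the same mock arrays that enter the interaction, so that their number is a description only. At 68 of the 75 the stomach minus brain difference was lower in value on the chitosan arrays. This is not always a smaller distance between organs, as at Nnat, picked after its values were seen, with -0.47 and -2.40.

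**Figure D5:**
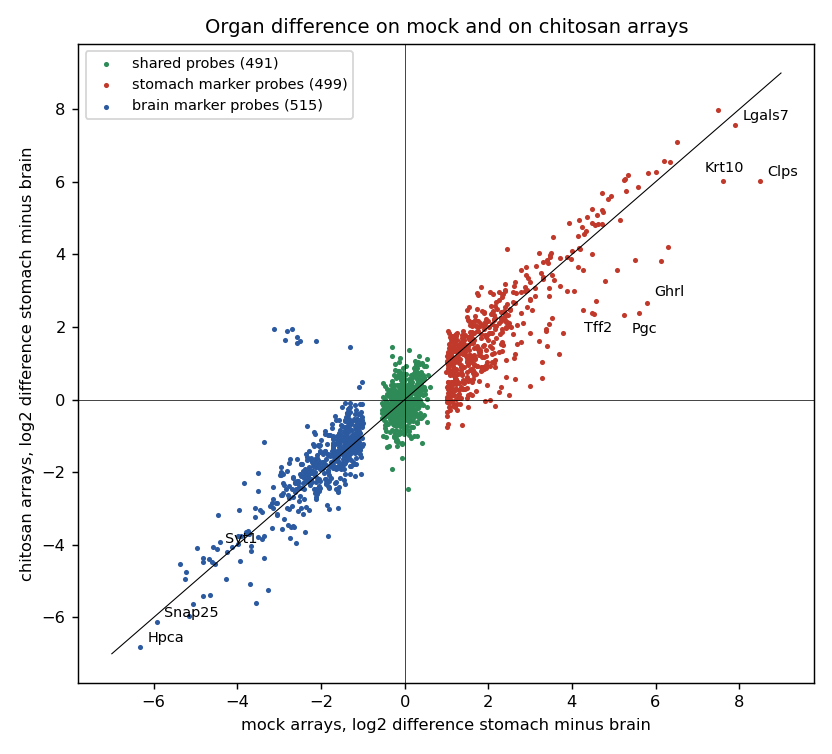
Log2 difference, stomach minus brain, of each stomach marker, brain marker and shared probe on the mock arrays (x axis) and on the chitosan arrays (y axis), 3 arrays for each organ and treatment, with the line of equal differences. Most markers keep their side, Ghrl, Pgc and Tff2 lie well under the line, and 9 brain marker probes lie above 1 on the chitosan axis.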

How the data were processed

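Total RNA of the brain and stomach was labeled with Cy5 and hybridized to Mouse Whole Genome OneArrays, 1 mouse for each array. The deposited values are linear intensities, which the authors made by subtracting local background, discarding control spots and those whose signal-to-noise ratio fell under 0, and normalizing in limma. The normalization method and version are not given in the sources used here. The arrays share an identical highest value of 28367.25, and their means are nearly equal. Probes were named from the annotation of the platform, and 13905 of 16675 symbols are current in RefSeq, 2728 matched a synonym and 42 were unmatched.

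The log2 intensities of the 6 mock arrays were fitted with limma 3.58.1 (R 4.3.3) by lmFit and by eBayes with an intensity trend. Adjustment followed Benjamini-Hochberg across the 29922 probes, and 0.05 was the threshold. The chitosan arrays were fitted in the same way, and the interaction over all 12 arrays. The fits were tested on simulated data. Named genes were the 20 largest markers of each organ, the 20 brightest shared genes, and in each list the 4 brightest measured genes and the defining markers. Further genes were chosen after seeing their values. The members and gene lists were chosen with earlier results of these data known. The alternatives were no intensity trend, median centering, the lowest intensity subtracted, a floor at the 20th percentile, all 12 arrays in 1 model, the methods' t-test, the replicate number as a block, other thresholds, the mean of the probes of a gene, and each array left out in turn. List counts without mock stomach replicate 2 were added after seeing the data. Arrays yield no counts, so that the 3 arrays of each organ limit the precision.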

Additional observations from a re-analysis of the deposited data

Results flagged for a closer look

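The stomach minus brain difference of 16 genes differed between mock and chitosan arrays by the limma interaction over 12 arrays, out of the genes of the lists, the named markers and the probes that turned. The interaction is the chitosan difference minus the mock difference on the log2 scale. It was below 0 for 14 genes, many of which are stomach markers chosen for a high mock value, and above 0 for 2 brain markers, which were likewise chosen on the mock arrays. It was -3.20 for Pgc (adjusted p 0.0174), with a mean stomach intensity of 2300 in mock and 243 in chitosan mice. For Ghrl it was -3.13 (adjusted p 0.0187), with 2970 and 325. For Tff2 it was -2.92 (adjusted p 0.0464), with 1658 and 219. Pgc, Ghrl and Tff2 are genes of the gastric glands, as are Agr2, of mucous cells, at -2.62 (adjusted p 0.000667), Kcne2 at -2.36 (adjusted p 0.0092), Gif at -2.08 (adjusted p 0.0411), Clic6 at -1.40 (adjusted p 0.0244) and Foxa3, a transcription factor, at -1.02 (adjusted p 0.0213). Epithelial genes were Elf3 at -0.89 (adjusted p 0.0183) and Tmprss2 at -0.61 (adjusted p 0.0182). Both were dim, with mean stomach intensities of 76.75 and 74.8 in mock and 46.3 and 49.25 in chitosan mice. Apoa1 had -2.25 (adjusted p 0.0182). Lpl, which encodes lipoprotein lipase, had -1.25 (adjusted p 0.0244), and its organ difference was 0.72 on the mock arrays and -0.53 on the chitosan arrays. The peptide genes Penk1 (enkephalin) and Gal (galanin) had -1.43 (adjusted p 0.0464) and -1.06 (adjusted p 0.0192), and both were dim. Penk1 had means of 47.8 in brain and 57.4 in stomach in mock mice, and 107 and 46.1 in chitosan mice, so that the brain value moved most. Gal had 41.9 and 70.8 in mock mice, and 57.2 and 45.9 in chitosan mice. Rshl1 and Spag9 ran the other way, at 5.05 (adjusted p 0.0392) and 4.52 (adjusted p 0.0286), with differences of -3.11 and -2.87 on the mock arrays and 1.94 and 1.65 on the chitosan arrays. The limma fit of the chitosan arrays alone called neither difference (adjusted p 0.401 and 0.425).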

How the results depend on the processing

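The 60 largest markers and brightest shared genes kept their side of the threshold in 898 of 900 settings. Their sign changed in 23 settings, all of 11 shared genes with a difference of at most 0.16 in size, and at 0 of the called genes. The exception in the threshold was Eif5a, which was called at 0.55 after median centering (adjusted p 0.0469) and at 0.68 without mock stomach replicate 2 (adjusted p 0.00195). The counts moved more. Subtracting the lowest intensity and adding 10 gave 878 stomach marker probes. The methods' t-test gave 1183 called probes after Benjamini-Hochberg, 574 higher in stomach and 609 higher in brain, and 4573 unadjusted. A 4-fold limit left 194 stomach and 202 brain markers, and a limit of 4 times the lowest intensity left 109 shared probes. With the replicate block 1247 probes were called, 729 higher in stomach and 518 higher in brain, and 317 were shared. The replicate numbers were not taken as paired, since no source says that they pair organs. Deviations of same-numbered brain and stomach arrays correlated at -0.03, -0.30 and -0.22 over 2515 probes, and of differently numbered arrays at -0.12 to 0.26. They are deviations from the mean of only 3 arrays for each organ, so that they cannot decide the pairing. Leaving out 1 mock array at a time gave 1387 to 2135 called probes, 682 to 1368 higher in stomach (lowest without mock brain replicate 1) and 539 to 891 higher in brain (lowest without mock stomach replicate 1). Markers called again on the chitosan arrays ranged from 0 to 584 when 1 chitosan array was left out, an alternative chosen after seeing the data, as was the fit without the trend, which gave 545, and 112 for the interaction. With the mean of the probes of each gene, the median was 1.40 for squamous epithelium, 0.67 for smooth muscle, 0.20 for simple epithelium, 0.09 for adipose tissue, 0.06 for chief cells, -0.01 for endocrine cells and -0.10 for neuropeptides. Probes near the floor cannot show a difference, and 23863 were near it in both organs.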

Other observations

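A group of 9 brain marker probes had at least a 2-fold difference in the other direction on the chitosan arrays, and 0 stomach marker probes did. They are probes of Daam2, Rshl1, Kif2a, Gnas, Spag9, Lrrn3 and Slc10a7 and 2 probes without a symbol, and each correlated with their mean profile over the 12 arrays at 0.927 or above, as a description of probes chosen after their values were seen. Rshl1, a radial spoke gene, gave 1656, 1817 and 1114 in mock brain and 250, 106 and 195 in mock stomach. On the chitosan arrays it gave 231, 114 and 411.9 in brain and 412.9, 936 and 1577 in stomach. The order of the organs turned, but on the chitosan arrays their ranges nearly met and limma did not call the difference (adjusted p 0.401).

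Single bright spots also occurred in the mock arrays. At 24 brain probes and 20 stomach probes 1 array lay more than 10-fold above the other two. On mock stomach replicate 1 these included Cga, a pituitary hormone subunit, at 528 and Ms4a1, a B cell antigen, at 367, and neither was called. On mock brain replicate 1 Fgfr3, a growth factor receptor, was at 461.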
